A study of Mus musculus with 21 samples.

Results

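The 9 CXC chemokine genes Cxcl1, Cxcl2, Cxcl9, Cxcl10, Cxcl12, Cxcl13, Cxcl14, Cxcl16 and Pf4 were followed through 21 RNA-sequencing libraries of macrophages sorted from mouse kidneys. They were chosen by gene symbol from the 34236 gene names of the count table, and each occupied 1 line of it. The cells came from kidneys of male C57BL/6J mice aged 24 weeks according to the labels. In RAS (renal artery stenosis) mice a cuff narrowed the right renal artery for weeks, and in Sham mice the artery was exposed but no cuff was placed. The gate took live CD45+ F4/80+ CD64+ cells after lineage-positive cells had been removed, and the cells were sorted straight into lysis buffer with no culture. CD11chiMϕ (CD11b high, CD11c high) came from Sham (n = 3) and RAS (n = 4) kidneys, CD11cloMϕ (CD11b high, CD11c low to negative) from Sham (n = 3) and RAS (n = 4) kidneys, and kidney-resident macrophages (KRM, intermediate for both) from Sham (n = 4) and RAS (n = 3) kidneys. The study describes KRM as long-lived residents and the other 2 populations as monocyte-derived. The comparisons ask how the populations differ in Sham kidneys and how each differs between RAS and Sham kidneys. Nothing in the labels ties a library to an animal, so the p-values measure the spread between these libraries only.

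CXC chemokines are small secreted proteins, named for the single residue between their first paired cysteines, that bind G protein-coupled receptors and direct leukocyte movement. Cxcl1 and Cxcl2 act through Cxcr2 and call in neutrophils, and both are transcribed quickly after NF-kB activation. Cxcl9 and Cxcl10 are induced by interferon and act through Cxcr3 on activated T and NK cells. Cxcl12 (receptor Cxcr4), Cxcl13 (receptor Cxcr5, on B cells) and Cxcl14 are largely made without an inflammatory stimulus. Cxcl16 is made as a transmembrane protein that binds Cxcr6 and oxidised lipoprotein and is shed by Adam10. Pf4 (platelet factor 4) is best known from platelet granules but is also transcribed by tissue macrophages.

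Of the members, 6 lie on chromosome 5 of the mouse genome (GENCODE vM21, GRCm38). Pf4 (chr5:90772435-90773383), Cxcl1 (chr5:90891241-90893115) and Cxcl2 (chr5:90903871-90905938) lie on the plus strand, close to Cxcl3, which is no member. Cxcl9 (chr5:92321347-92328079) and Cxcl10 (chr5:92346638-92348889) are neighbours on the minus strand, and Cxcl13 (chr5:95956951-95961068) lies further along on the plus strand. Cxcl12 (chr6:117168535-117181367, plus), Cxcl14 (chr13:56288643-56296551, minus) and Cxcl16 (chr11:70453983-70459984, minus) stand alone. Cxcl10 overlaps Art3 and Cxcl16 overlaps Zmynd15, each on the opposite strand. The coding sequences of Cxcl2 and Cxcl3 (300 bases each) were 89.7% identical, and that of Cxcl1 (288 bases) was 75.7% identical to Cxcl2. The counts of Cxcl2 and Cxcl16 held fractions in 21 of 21 libraries and those of Cxcl10 in 20 of 21, as estimates that divide reads between features do, and their levels are uncertain to that extent. The other 6 members held whole counts, to within 0.001, in every library. The sources do not say that reads were counted by strand, so reads of Art3 and Zmynd15 could also enter the Cxcl10 and Cxcl16 counts.

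The promoters of the 4 members that are known targets of NF-kB or interferon are printed here because Cxcl1, Cxcl2 and Cxcl9 differed in the comparisons that follow and Cxcl10 is the neighbour of Cxcl9. Each is the 250 bases before the RefSeq start (GRCm38.p6), read 5′ to 3′ on the gene's strand, at chr5:90890995-90891244 (Cxcl1, plus), chr5:90903649-90903898 (Cxcl2, plus), chr5:92328080-92328329 (Cxcl9, minus) and chr5:92348890-92349139 (Cxcl10, minus). Capitals mark matches on either strand to NF-kB letters (GGG, 2 of any base, then TTTCC or TTCCC), interferon-stimulated response element letters (GAAA, 2 of any base, GAAA) and hypoxia letters (ACGTG), and on the sense strand to TATAAA.
Cxcl1 promoter: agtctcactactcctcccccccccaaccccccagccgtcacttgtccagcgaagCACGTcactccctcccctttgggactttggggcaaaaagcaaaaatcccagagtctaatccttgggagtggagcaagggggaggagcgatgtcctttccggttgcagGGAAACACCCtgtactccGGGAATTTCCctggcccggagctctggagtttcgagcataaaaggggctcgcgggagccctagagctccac
Cxcl2 promoter: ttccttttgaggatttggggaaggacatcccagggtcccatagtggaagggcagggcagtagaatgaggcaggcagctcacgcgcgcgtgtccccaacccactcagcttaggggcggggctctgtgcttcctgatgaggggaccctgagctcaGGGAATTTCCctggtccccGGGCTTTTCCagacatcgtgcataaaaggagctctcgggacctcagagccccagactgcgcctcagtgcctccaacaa
Cxcl9 promoter: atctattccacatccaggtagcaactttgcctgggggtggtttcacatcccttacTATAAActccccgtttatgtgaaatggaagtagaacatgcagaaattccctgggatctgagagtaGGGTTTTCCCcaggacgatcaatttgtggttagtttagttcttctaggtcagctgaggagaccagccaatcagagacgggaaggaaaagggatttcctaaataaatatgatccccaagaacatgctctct
Cxcl10 promoter: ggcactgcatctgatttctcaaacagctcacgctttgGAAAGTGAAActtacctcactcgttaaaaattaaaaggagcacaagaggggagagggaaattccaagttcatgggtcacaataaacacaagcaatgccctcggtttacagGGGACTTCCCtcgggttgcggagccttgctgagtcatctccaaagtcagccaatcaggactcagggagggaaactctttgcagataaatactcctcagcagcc
All 4 held NF-kB letters, and none of the other 4 members with a promoter in the RefSeq table (Cxcl12, Cxcl13, Cxcl14 and Pf4) did. Cxcl1 and Cxcl2 shared the match GGGAATTTCC and each held a further one, and Cxcl10 held the interferon letters GAAAGTGAAA. Outside these 4, Cxcl14 held interferon letters and Cxcl13 held TATAAA. Among all 32851 promoters of the same length, 2.82% held NF-kB letters of either form, 2.98% the interferon letters, 16.6% the hypoxia letters and 7.59% the sense TATAAA. These matches are descriptions of letters, not evidence of binding.

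Library totals ran from 6891177 to 18592427 counts. Values are CPM (counts scaled to a common library size, with TMM factors over the 21 libraries), and an SD is over the libraries of a group. The macrophage gene Csf1r was at 493 to 3772 CPM on total counts in every library, and Itgax, which encodes CD11c, was at 8.76 to 52.1 CPM in CD11cloMϕ against 110.3 to 780 in the libraries of CD11chiMϕ and KRM. Several libraries stood apart. Summed proximal tubule markers reached 20606 CPM in CD11chiMϕ Sham replicate 3 (522 and 667 in the other replicates) and 7579 CPM in CD11cloMϕ Sham replicate 3 (247 and 195). KRM Sham replicate 3 held 3790.4 CPM of the same markers (914 to 949.7 in the other replicates) and 206 CPM of loop of Henle and distal tubule markers (7.31 to 8.80). KRM RAS replicates 2 and 3 held 4273 and 3143 CPM of loop of Henle and distal tubule markers, against 136 in replicate 1 and 7.31 to 206 in KRM Sham. KRM RAS replicate 1 held 576 CPM of T and NK cell markers. It also held 3415 CPM of B and plasma cell markers (1293 to 1587 in KRM Sham, 589 and 572 in RAS replicates 2 and 3). Its column in the deposited log2 table did not correspond to its counts. CD11chiMϕ RAS replicates 3 and 4 held 4511 and 4908 CPM of dendritic cell markers, more than any other library. CD11cloMϕ RAS replicate 3 had 1745 CPM of the complement gene C1qa (median of its group 418). The fits were made with all libraries, and the values without those that stood apart are given where they change a result. In bulk RNA of this kind, fewer producing cells and less RNA per cell cannot be told apart.

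Per kilobase of exon, which allows genes to be compared, KRM and the monocyte-derived populations carried different chemokines. In KRM Sham, Cxcl16 made up 67.8% to 72.2% of the summed CPM per kb of the 9 genes and Cxcl2 11.3% to 14.5%. In CD11cloMϕ Sham the order was reversed, with Cxcl16 at 1.46% to 2.35% and Cxcl2 at 45.5% to 69.7%, and Cxcl13 took 5.63% to 27.6%. CD11chiMϕ Sham lay between, with Cxcl16 at 23.0% to 46.8% and Cxcl2 at 19.96% to 45.6%. In KRM RAS the share of Cxcl16 was 65.3% in replicate 1 but 37.1% and 38.9% in replicates 2 and 3, where Cxcl2 took 29.9% and 32.4%. On this scale Cxcl12 was the lowest member in every group but KRM Sham, where Cxcl13 was lower, at 0.294 against 0.448 mean CPM per kb. The length used was that of all annotated exons merged, and at 8176 bases that of Cxcl12 was the longest. In CPM not divided by length, Cxcl14 was below Cxcl12 in both CD11cloMϕ groups and in KRM RAS.

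**Figure D1:**
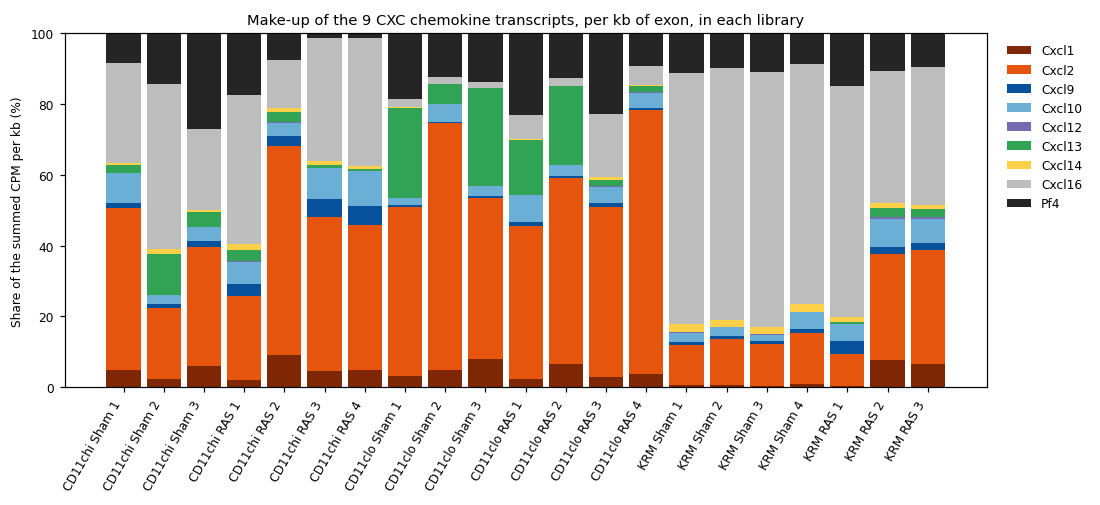
Stacked bars give the share of each chemokine in the summed CPM per kb of the 9 genes (y axis, percent) in each of the 21 libraries (x axis). The grey Cxcl16 block fills 67.8% to 72.2% of the 4 KRM Sham bars and 1.46% to 2.35% of the 3 CD11clo Sham bars.

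The difference between populations in Sham kidneys was tested with edgeR's quasi-likelihood test, with Benjamini-Hochberg adjustment over all genes tested, and a member was called at an adjusted p under 0.05. Of the 9 members, 1 was higher and 2 were lower in KRM than in CD11chiMϕ, where 5.13% of all 12380 genes tested were called (1.00% higher, 4.13% lower). Against CD11cloMϕ 2 were higher and 4 lower in KRM, where 41.9% of 12365 genes were called (19.5% higher, 22.4% lower). Between CD11chiMϕ and CD11cloMϕ 1 was higher, where 1.52% of 12105 genes were called (0.917% higher, 0.603% lower). The groups did not overlap for 5 members in the first comparison (24.5% of all genes, 13.5% higher and 11.0% lower), for 6 in the second (48.8%, 24.9% higher and 23.9% lower) and for 3 in the last (26.8%, 12.5% higher and 14.3% lower). The count against CD11cloMϕ has to be read beside a background in which a large share of all genes differed. The median log2 fold change of the 9 members was -0.56, -1.11 and -0.35, beside -0.07, -0.04 and 0.13 over all genes. Replicate numbers were taken to pair the Sham libraries of the populations, though no label gives this. With the number as a block, Cxcl13 was the 1 member still called between KRM and CD11chiMϕ. The calls of the other 2 comparisons stayed at 6 and 1.

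**Figure D2:**
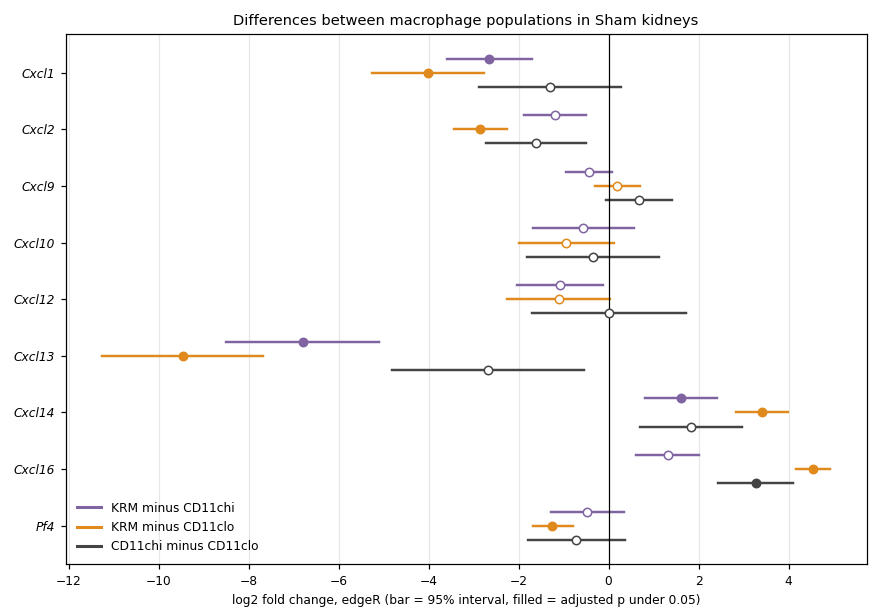
Points are log2 fold changes (x axis) of the 9 chemokines (y axis) for 3 comparisons in Sham kidneys, with bars for the 95% interval and filled points for an adjusted p under 0.05. Cxcl13 lies furthest left, at -6.80 and -9.47 for KRM minus CD11chi and minus CD11clo, and Cxcl16 furthest right at 4.55 for KRM minus CD11clo.

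Cxcl1 and Cxcl2, the neutrophil chemokines, were at their lowest in KRM of Sham kidneys. Cxcl1 was at 9.50, 7.51, 4.24 and 10.7 CPM in the 4 KRM Sham libraries (7.98 ± 2.81, SD, n = 4). It was at 57.8, 26.2 and 59.3 CPM in CD11chiMϕ Sham (47.8 ± 18.7, n = 3) and at 45.0, 102 and 233 CPM in CD11cloMϕ Sham (126 ± 96.2, n = 3). Every KRM Sham library lay below every library of the other populations, and the CD11chiMϕ and CD11cloMϕ ranges overlapped. Cxcl1 was lower in KRM by a log2 fold change of -2.66 (SE 0.404, edgeR adjusted p = 0.0152) against CD11chiMϕ and of -4.01 (SE 0.54, adjusted p = 0.000635) against CD11cloMϕ. The first call was lost with the replicate block (log2 fold change -2.78, adjusted p = 0.0845), in 1 fit over all 6 groups (-2.59, 0.11) and without CD11chiMϕ Sham replicate 1 (-2.49, 0.0647), KRM Sham replicate 1 (-2.75, 0.0583) or KRM Sham replicate 2 (-2.63, 0.0664). Over all 14 alternatives its log2 fold change ran from -2.94 to -2.44 and its adjusted p from 1.73e-07 to 0.11.

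Cxcl2 was the more abundant of the pair in every group, at 191 mean CPM per kb in CD11chiMϕ Sham and 613 in CD11cloMϕ Sham, beside 25.5 and 67.4 for Cxcl1. Its CPM was 184, 178, 145 and 208 in KRM Sham (179 ± 25.7, n = 4), 582, 245 and 358 in CD11chiMϕ Sham (395 ± 171, n = 3) and 738, 1610.2 and 1452 in CD11cloMϕ Sham (1267 ± 465, n = 3). The 3 populations did not overlap and stood in the order CD11cloMϕ, CD11chiMϕ, KRM. The difference of KRM from CD11cloMϕ was called (log2 fold change -2.85, SE 0.26, edgeR adjusted p = 8.25e-05). Those from CD11chiMϕ (-1.20, adjusted p = 0.0659) and between the monocyte-derived populations (-1.61, adjusted p = 0.151) did not pass, and the first of these passed with DESeq2 (-1.21, 0.00266) and without either CD11chiMϕ Sham replicate 2 (-1.44, 0.0278) or the tubule-rich replicate 3 (-1.23, 0.0331), within a range of 0.00266 to 0.258 over its 14 alternatives. Summed levels of 12 neutrophil markers were at 99.9 to 114 CPM in KRM Sham, 45.1 to 256 in CD11chiMϕ Sham and 1023 to 2561 in CD11cloMϕ Sham. Mpo and Ly6g were at 0 in KRM and CD11chiMϕ Sham. None of the 12 was at 0 throughout CD11cloMϕ Sham, and Mpo was at 0 in CD11cloMϕ RAS. The part of neutrophil RNA in the Cxcl2 and Cxcl1 differences was not tested.

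Under RAS the pair separated the KRM libraries from each other. Cxcl1 was at 3.73, 112 and 111 CPM and Cxcl2 at 100.1, 478 and 611 CPM in KRM RAS replicates 1, 2 and 3. Replicate 1 lay below all 4 Sham libraries for both genes, and replicates 2 and 3 lay above all of them. The log2 fold change of RAS minus Sham in KRM was 3.38 for Cxcl1 (95% interval 1.24 to 5.51, edgeR adjusted p = 0.0566) and 1.27 for Cxcl2 (0.08 to 2.45, adjusted p = 0.127), so neither was called. Without replicate 1 Cxcl1 rose by 3.91 on the log2 scale (adjusted p = 6.17e-05), and with replicate 1 as the lone RAS library it was at -1.03, its adjusted p running from 6.17e-05 to 0.663 over the alternatives. With replicate 1 kept, Cxcl1 also passed with no filter on low counts (3.30, adjusted p = 0.0489), in 1 fit over all 6 groups (3.25, 0.0393) and with DESeq2 (3.37, 0.00743). Cxcl2 passed with DESeq2 (1.28, 0.043) and without replicate 1 (1.68, 0.000162). Far more of all genes were called without replicate 1 as well, as given below for Cxcl9. The tubule-rich libraries are the same replicates 2 and 3, and the part of the tubule RNA in these values was not tested.

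In the monocyte-derived cells RAS and Sham libraries overlapped for both genes. Cxcl1 was at 15.5, 193, 59.9 and 59.5 CPM in CD11chiMϕ RAS and at 22.4, 200.2, 103 and 109 CPM in CD11cloMϕ RAS. Cxcl2 was at 206, 1365, 640.5 and 565 CPM in CD11chiMϕ RAS and at 433, 1785, 1841 and 2344 CPM in CD11cloMϕ RAS. In both populations replicate 1 had the lowest level of both chemokines. The log2 fold changes of RAS minus Sham lay between -0.26 and 0.73 with adjusted p of 0.673 to 0.922.

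**Figure D3:**
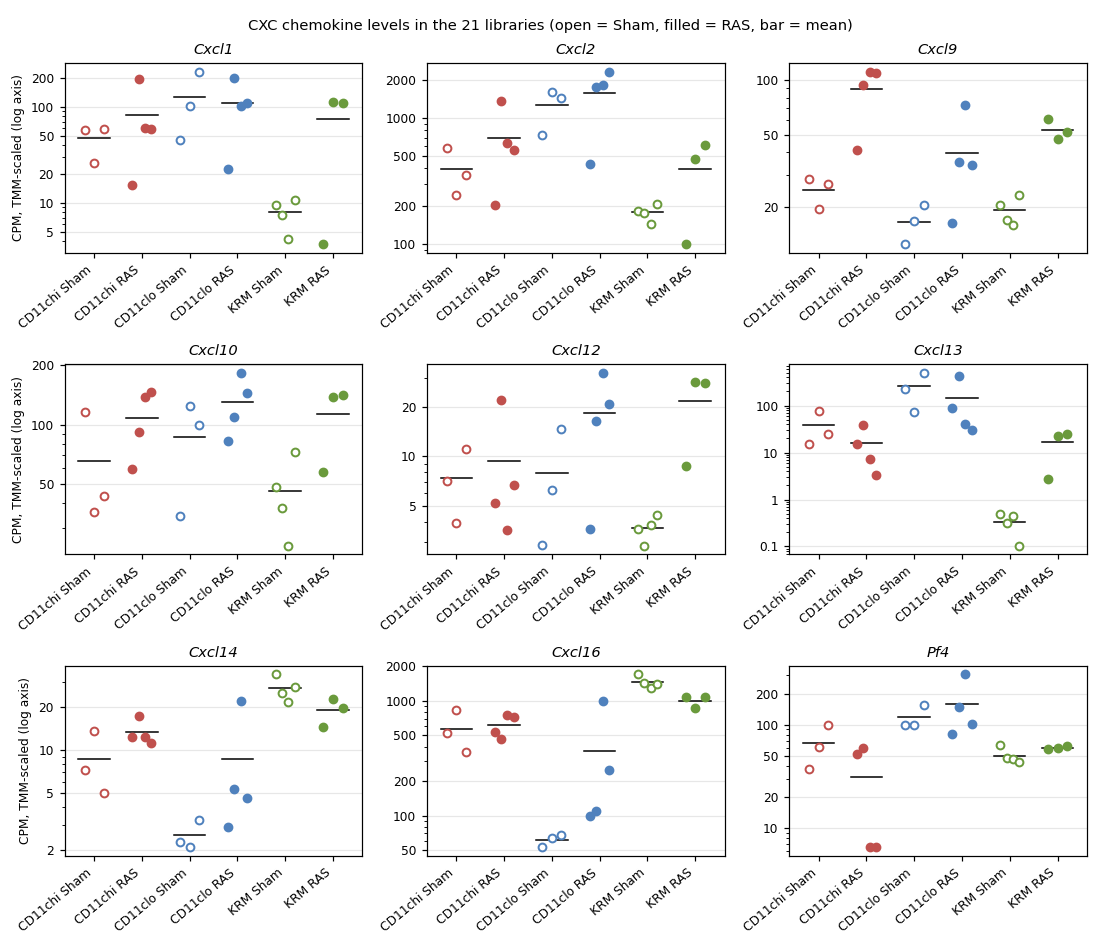
Each panel plots 1 chemokine in CPM (log axis) for the 6 groups (x axis), with open points for Sham libraries, filled points for RAS libraries and a bar for the group mean. Cxcl16 and Cxcl14 are highest in the KRM columns, Cxcl13 is under 0.5 CPM in all 4 KRM Sham libraries, and Cxcl9 is higher in all RAS libraries than in all Sham libraries of CD11chi and of KRM.

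Cxcl9, an interferon-gamma target, was not called between populations in Sham kidneys (log2 fold changes -0.44, 0.19 and 0.68), and its mean was higher in RAS than in Sham in all 3. In KRM it was at 20.4, 16.8, 15.8 and 23.1 CPM in Sham (19.0 ± 3.36, n = 4) and at 61.3, 47.3 and 51.5 CPM in RAS (53.4 ± 7.19, n = 3). Every RAS library lay above every Sham library, and RAS replicate 1 had the highest value. That library held 136 CPM of loop of Henle and distal tubule markers (7.31 to 206 in KRM Sham) and 2544 CPM of proximal tubule markers (914 to 3790.4 in KRM Sham). It held 576 CPM of T and NK cell markers (3.97 to 5.38 in KRM Sham) and 3415 CPM of B and plasma cell markers (1293 to 1587 in KRM Sham). The part of these cells in its Cxcl9 value was not tested. Cxcl9 rose by 1.59 on the log2 scale (SE 0.166, 95% interval 1.21 to 1.98, edgeR adjusted p = 0.0101). In KRM 3 of the 9 members rose and 0 fell, beside 9.70% of all 12852 genes called (7.77% higher, 1.94% lower), and 4 did not overlap between the groups, beside 27.6% of all genes (10.5% higher, 17.1% lower). The 9 members had 8 with an unadjusted p under 0.05, beside 4369 of all 12852 genes, and the median log2 fold change of the 9 was 1.42 beside 0.02 over all genes. Of the 3, Cxcl9 was the 1 member called without each of the 7 libraries in turn, with log2 fold changes of 1.45 to 1.69. Leaving out a library other than KRM Sham replicate 3 or KRM RAS replicate 1 left 26 to 43 genes called in all, against 1247 with every library, 1336 without KRM Sham replicate 3 and 7071 without KRM RAS replicate 1. With RAS replicate 1 as the lone RAS library, taken to vary like the Sham libraries, Cxcl9 was at 1.74 (adjusted p = 0.0189), and over all 14 alternatives the adjusted p ran from 3.15e-13 to 0.0504.

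In CD11chiMϕ Cxcl9 was at 28.3, 19.4 and 26.7 CPM in Sham (24.8 ± 4.73, n = 3) and at 41.2, 93.7, 111 and 109 CPM in RAS (88.9 ± 32.7, n = 4). The highest values were those of RAS replicates 3 and 4, which held 4511 and 4908 CPM of dendritic cell markers (495 to 2049 in CD11chiMϕ Sham) and 107 and 100.5 CPM of Emr1, the gene of F4/80 (303 to 1011 in CD11chiMϕ Sham). The groups did not overlap, as held for 6.85% of all 12739 genes (4.36% higher). Its log2 fold change was 1.74 (SE 0.379, unadjusted p = 0.0017, edgeR adjusted p = 0.508) in a comparison where 0.00% of genes were called, 1247 having an unadjusted p under 0.05. It passed with DESeq2 (1.75, adjusted p = 0.00717, 188 genes called) and without CD11chiMϕ RAS replicate 1 (1.97, 0.0484), the adjusted p running from 0.00717 to 1 over the alternatives. Without replicates 3 and 4 together the log2 fold change was 1.37 (adjusted p = 1). In CD11cloMϕ it was at 12.4, 16.7 and 20.3 CPM in Sham (16.5 ± 3.97, n = 3) and at 16.2, 35.3, 72.7 and 33.8 CPM in RAS (39.5 ± 23.8, n = 4). RAS replicate 1 lay within the Sham range there, and the log2 fold change of 1.24 (SE 0.472, adjusted p = 0.553) was not called. In CD11cloMϕ 0.00% of 12301 genes were called, with 1102 at an unadjusted p under 0.05 and 107 called by DESeq2. The difference in response between KRM and CD11chiMϕ was -0.21 (95% interval -1.09 to 0.66) and that between KRM and CD11cloMϕ was 0.28 (-0.82 to 1.39), neither called. No member was called for any of the 3 differences in response, beside 0.00%, 0.245% and 0.00% of all genes.

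Cxcl10 spread widely within groups. It was at 48.2, 37.9, 24.4 and 73.0 CPM in KRM Sham and at 57.7, 138 and 142 CPM in KRM RAS. RAS replicates 2 and 3 lay above all Sham libraries and replicate 1 among them, for a log2 fold change of 1.42 (95% interval 0.45 to 2.39, edgeR adjusted p = 0.0669). It passed with DESeq2 (1.42, adjusted p = 0.00863) and without RAS replicate 1 (1.70, 0.00463), where far more of all genes were called as well. It was at 116, 36.2 and 43.3 CPM in CD11chiMϕ Sham and at 59.3, 91.7, 138 and 145 in CD11chiMϕ RAS. It was at 34.4, 125 and 99.2 CPM in CD11cloMϕ Sham and at 82.1, 109.7, 182 and 144 in CD11cloMϕ RAS. The ranges overlapped in both, and neither difference was called (adjusted p = 0.635 and 0.703).

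Markers of T and NK cells, which carry the receptor Cxcr3 of both chemokines, summed to more in every RAS than in every Sham library of each population. Their summed level was 3.97 to 5.38 CPM in KRM Sham and 58.5 to 576 CPM in KRM RAS. It was 9.91 to 43.2 CPM in CD11chiMϕ Sham and 91.8 to 414 CPM in CD11chiMϕ RAS, and 4.74 to 11.8 CPM in CD11cloMϕ Sham and 19.0 to 61.0 CPM in CD11cloMϕ RAS. None of these markers was at 0 throughout either KRM group, and their part in the Cxcl9 values was not tested.

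**Figure D4:**
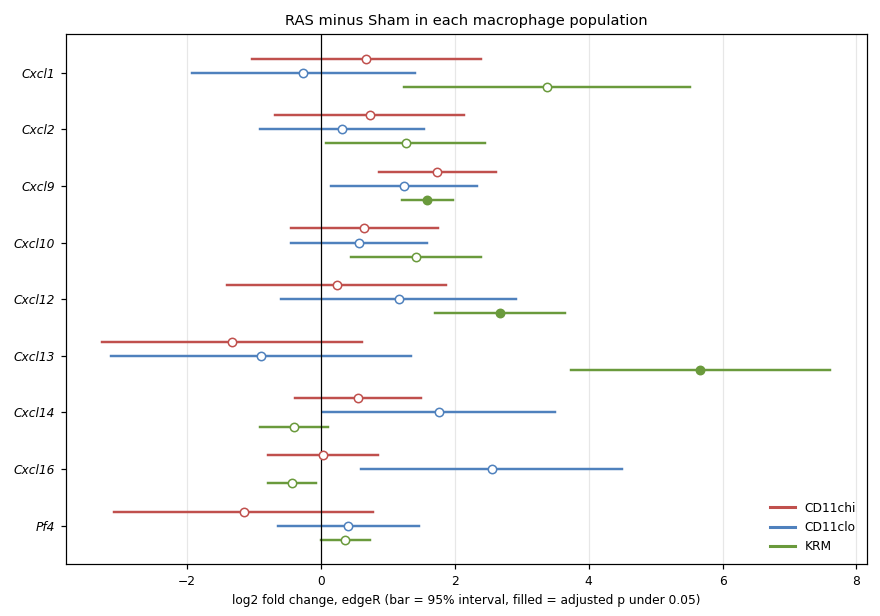
Points are log2 fold changes of RAS minus Sham (x axis) for the 9 chemokines (y axis) in each population, with bars for the 95% interval and filled points for an adjusted p under 0.05. The 3 filled points are Cxcl9 (1.59), Cxcl12 (2.67) and Cxcl13 (5.67) in KRM.

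Cxcl12, the ligand of Cxcr4 that holds haematopoietic cells in their niches, was scarce in all macrophages. It was at 3.61, 2.86, 3.79 and 4.39 CPM in KRM Sham (3.66 ± 0.632, n = 4) and at 8.74, 28.4 and 27.9 CPM in KRM RAS (21.7 ± 11.2, n = 3). All RAS libraries lay above all Sham libraries, with replicate 1 lowest among them. Cxcl12 rose by 2.67 on the log2 scale (SE 0.42, edgeR adjusted p = 0.0202). The call was lost without KRM Sham replicate 1 (2.67, 0.0846), replicate 2 (2.57, 0.0797) or replicate 4 (2.76, 0.0638), and without KRM RAS replicate 2 (2.41, 0.0709) or replicate 3 (2.43, 0.0778). With replicate 1 as the lone RAS library it was 1.29 (adjusted p = 0.268), and over the alternatives the adjusted p ran from 7.72e-07 to 0.268. Fibroblasts and endothelial cells are known sources of this chemokine. Summed fibroblast and pericyte markers were at 23.2 to 44.4 CPM in KRM Sham and at 53.3, 720 and 752 CPM in KRM RAS replicates 1, 2 and 3. Summed endothelial markers were at 54.9 to 74.9 CPM in KRM Sham and at 85.9, 369 and 320.5 CPM in KRM RAS replicates 1, 2 and 3. The part of these cells in the Cxcl12 values was not tested.

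In the other populations Cxcl12 did not pass. It was at 7.10, 3.93 and 11.1 CPM in CD11chiMϕ Sham and at 5.16, 21.9, 3.55 and 6.68 in CD11chiMϕ RAS. It was at 2.89, 6.26 and 14.6 CPM in CD11cloMϕ Sham and at 3.60, 16.5, 32.1 and 20.8 in CD11cloMϕ RAS. In CD11chiMϕ the high RAS value was that of replicate 2, which also had the most fibroblast and pericyte RNA of its group, at 329 CPM. In CD11cloMϕ RAS the library with the most of that RNA, replicate 2 at 439 CPM, was not the highest for Cxcl12, which was replicate 3 at 139.7 CPM. The log2 fold changes were 0.24 (adjusted p = 0.92) and 1.16 (adjusted p = 0.651).

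Cxcl13, the B cell chemokine, showed the widest fold range of the 9 genes, from 0.105 to 491 CPM. It was nearly undetected in KRM Sham, with 4, 3, 9 and 1 counts, or 0.481, 0.317, 0.449 and 0.105 CPM (0.338 ± 0.171, n = 4). It was at 15.4, 78.3 and 24.2 CPM in CD11chiMϕ Sham (39.3 ± 34.0, n = 3) and at 220.0, 72.3 and 491 CPM in CD11cloMϕ Sham (261 ± 212, n = 3). The KRM Sham libraries lay below all others, and the monocyte-derived ranges met between 72.3 and 78.3 CPM. Cxcl13 was lower in KRM by a log2 fold change of -6.80 (SE 0.725, edgeR adjusted p = 0.00532) against CD11chiMϕ and of -9.47 (SE 0.779, adjusted p = 4.65e-05) against CD11cloMϕ. The first call held in all 14 alternatives, the replicate block included (-6.23, adjusted p = 0.0408), with log2 fold changes of -7.17 to -4.89. The serous cavity macrophage list, on which Cxcl13 itself stands, summed to 24.5 to 32.1 CPM in KRM Sham, 605 to 1280 in CD11chiMϕ Sham and 1770 to 2522 in CD11cloMϕ Sham.

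In KRM RAS Cxcl13 had 28, 261 and 274 counts in replicates 1, 2 and 3, or 2.75, 22.7 and 25.1 CPM. All 3 were above all KRM Sham libraries. Summed over libraries the ratio of CPM on total counts was 53.5 (exact 95% counting interval 33.1 to 92.4), from 563 counts against 17, and for replicate 1 alone it was 8.5 (4.49 to 16.5). Cxcl13 rose by 5.67 on the log2 scale (SE 0.834, edgeR adjusted p = 0.0175), a value that rests on those 17 Sham counts. The call was lost without KRM Sham replicate 1 (5.82, 0.0775), replicate 2 (5.63, 0.0757) or replicate 4 (5.40, 0.0553), without KRM RAS replicate 2 (5.39, 0.0595) or replicate 3 (5.26, 0.061), and with RAS replicate 1 alone (3.00, 0.268), the range over alternatives being 1.31e-09 to 0.268. The serous cavity macrophage list, Cxcl13 included, summed to 24.5 to 32.1 CPM in KRM Sham and to 48.0, 114 and 117 CPM in KRM RAS replicates 1, 2 and 3, the Cxcl13 counts being part of these sums. Of its 11 genes 5 were tested, Cxcl13 itself among them. Of the others, Lyz1 (3.50 on the log2 scale, edgeR adjusted p = 0.0269) and Fcna (1.99, 0.0347) rose, beside 7.77% of all genes. Alox15 (0.18, 0.908) and Icam2 (-0.44, 0.169) were not called. The part of such cells in the Cxcl13 values was not tested. Even the highest KRM RAS library stayed below every CD11cloMϕ library.

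In the other populations the Cxcl13 means were lower in RAS and the ranges overlapped. CD11chiMϕ RAS libraries were at 15.4, 39.0, 7.33 and 3.40 CPM and CD11cloMϕ RAS libraries at 86.7, 419.6, 41.1 and 30.8 CPM. The log2 fold changes were -1.33 (95% interval -3.27 to 0.61) and -0.89 (-3.13 to 1.34). The response of KRM minus that of CD11chiMϕ was 6.95 (SE 1.31, edgeR adjusted p = 0.098) and that of KRM minus CD11cloMϕ was 6.43 (SE 1.5, adjusted p = 0.0726). Neither passed. Without KRM RAS replicate 1 both did (7.45, adjusted p = 0.0104, and 6.91, 0.00935), as they did with DESeq2, and the second also without CD11cloMϕ RAS replicate 2 (7.85, 0.04).

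Cxcl14 and Cxcl16 were the members with their highest Sham mean in KRM. Cxcl14 was at 34.0, 25.4, 21.8 and 28.0 CPM in KRM Sham (27.3 ± 5.16, n = 4), at 7.20, 13.7 and 5.02 in CD11chiMϕ Sham (8.64 ± 4.51, n = 3) and at 2.27, 2.09 and 3.21 in CD11cloMϕ Sham (2.52 ± 0.599, n = 3). The populations did not overlap. Cxcl14 was higher in KRM by 1.62 (SE 0.344, edgeR adjusted p = 0.0422) than in CD11chiMϕ and by 3.41 (SE 0.25, adjusted p = 2.63e-05) than in CD11cloMϕ, both as log2 fold changes. The first call was lost with the block (1.70, 0.128), with no filter on low counts (1.64, 0.0637), in 1 fit over all 6 groups (1.66, 0.085), with limma on the deposited log2 table (1.75, 0.0623), without CD11chiMϕ Sham replicate 1 (1.51, 0.154) and without each KRM Sham replicate in turn (1.5 to 1.69, 0.0863 to 0.118), the range over alternatives being 0.00036 to 0.154. CD11chiMϕ minus CD11cloMϕ was 1.83 (adjusted p = 0.122).

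Under RAS Cxcl14 was at 14.6, 22.9 and 19.8 CPM in KRM, at 12.4, 17.4, 12.4 and 11.3 in CD11chiMϕ and at 2.88, 5.37, 22.0 and 4.62 in CD11cloMϕ. RAS and Sham ranges overlapped in all 3 populations. The log2 fold changes were -0.40 in KRM (adjusted p = 0.228), 0.56 in CD11chiMϕ (0.632) and 1.77 in CD11cloMϕ (0.554). The CD11cloMϕ value was 0.75 (adjusted p = 0.78) without replicate 3, the library with high C1qa.

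Cxcl16, the transmembrane chemokine, was higher in KRM than in CD11cloMϕ. It was at 1698, 1426, 1304 and 1415 CPM in KRM Sham (1461 ± 167, n = 4), at 526, 838 and 358 in CD11chiMϕ Sham (574 ± 243, n = 3) and at 53.2, 63.4 and 68.3 in CD11cloMϕ Sham (61.6 ± 7.69, n = 3). The 3 populations did not overlap. KRM exceeded CD11cloMϕ by 4.55 (SE 0.168, edgeR adjusted p = 1.37e-06) and CD11chiMϕ exceeded CD11cloMϕ by 3.28 (SE 0.345, adjusted p = 0.0209) as log2 fold changes. The second call was lost without any 1 library except CD11chiMϕ Sham replicate 3 (2.93 to 3.36, adjusted p of 0.0777 to 0.192 when lost). KRM minus CD11chiMϕ was 1.31 (SE 0.298, adjusted p = 0.0516), just outside the threshold, and was called with DESeq2 (1.3, 0.000108) and without CD11chiMϕ Sham replicate 2 (1.68, 0.0257) or replicate 3 (1.09, 0.013).

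Between RAS and Sham the Cxcl16 groups did not overlap in KRM, where RAS was lower, nor in CD11cloMϕ, where RAS was higher, and neither difference was called. KRM RAS libraries were at 1072, 868 and 1073 CPM, all below the lowest KRM Sham library (log2 fold change -0.43, 95% interval -0.79 to -0.08, edgeR adjusted p = 0.0974). That difference passed with DESeq2 (-0.44, adjusted p = 0.0152) and without KRM RAS replicate 1 (-0.52, 0.024), where far more of all genes were called as well. CD11cloMϕ RAS libraries were at 98.9, 110.4, 1002 and 252 CPM, all above the highest Sham library (2.55, 95% interval 0.60 to 4.50, adjusted p = 0.553). In CD11cloMϕ 8.41% of all genes did not overlap (4.46% higher). Replicate 3 gave the high value in CD11cloMϕ, and without it the log2 fold change was 1.32 (adjusted p = 0.775). CD11chiMϕ RAS libraries, at 531, 465, 749 and 726 CPM, overlapped with Sham (0.03, 95% interval -0.79 to 0.85). The response of KRM minus that of CD11cloMϕ was -3.05 (SE 0.897, adjusted p = 0.0951).

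The mean of Pf4 was highest in CD11cloMϕ. It was at 99.4, 99.2 and 154 CPM in CD11cloMϕ Sham (118 ± 31.7, n = 3), at 37.1, 60.9 and 99.96 in CD11chiMϕ Sham (66.0 ± 31.7, n = 3) and at 63.4, 47.1, 46.5 and 43.5 in KRM Sham (50.1 ± 8.99, n = 4). CD11chiMϕ overlapped with both other populations. KRM and CD11cloMϕ did not overlap, and Pf4 was lower in KRM by a log2 fold change of -1.25 (SE 0.194, edgeR adjusted p = 0.00136). The call was lost in 1 fit over all 6 groups (-1.23, adjusted p = 0.159) and held in the other 13 alternatives. In KRM RAS it was at 58.0, 59.5 and 62.4 CPM (0.36, 95% interval 0.00 to 0.73, adjusted p = 0.147). In CD11chiMϕ RAS it was at 52.6, 59.9, 6.62 and 6.55 CPM, so that replicates 3 and 4 lay far below replicates 1 and 2 and below all Sham libraries (-1.15, adjusted p = 0.632). Without these 2 libraries, which are those with the most dendritic cell RNA, the log2 fold change was -0.32 (adjusted p = 1). In CD11cloMϕ RAS it was at 80.7, 149, 306 and 100.5 CPM (0.41, adjusted p = 0.784). The other platelet genes were nearly absent, since the 10 listed platelet markers summed to 1.78 to 17.3 CPM, and Gp5 had 0 counts in 5 of the 6 groups.

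**Figure D5:**
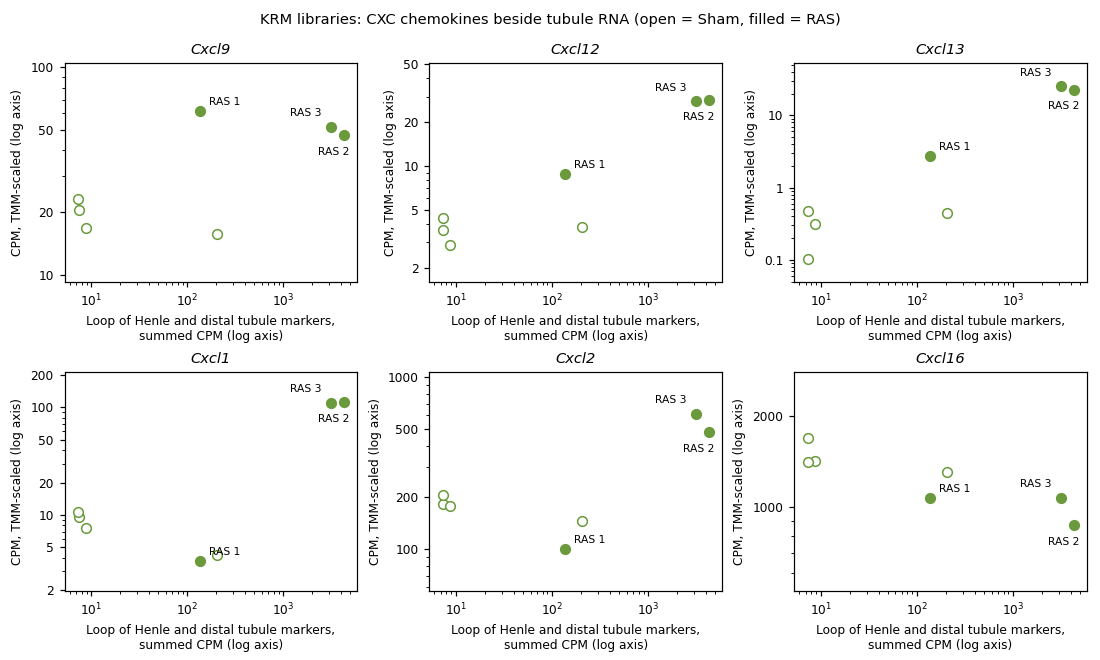
Levels of 6 chemokines (y axis, CPM, log axis) in the 7 KRM libraries are plotted against the summed CPM of loop of Henle and distal tubule markers (x axis, log axis), with open points for Sham and labelled filled points for RAS. RAS replicate 1, at 136 CPM of these markers, has the highest Cxcl9 and the lowest Cxcl1 and Cxcl2, while replicates 2 and 3, above 3000 CPM, have the highest Cxcl12 and Cxcl13.

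The receptors and other ligands were read from lists of genes. Of the 6 other CXC ligands, Cxcl5, Ppbp, Cxcl15 and Cxcl17 did not exceed 4.03 CPM in any library. Cxcl3, the close paralog of Cxcl2, was at 0.199 to 0.601 CPM in KRM Sham and at 4.4 to 10.2 CPM in CD11cloMϕ Sham (log2 fold change of KRM minus CD11cloMϕ -4.52, SE 0.531, edgeR adjusted p = 0.000315). Cxcl11, which shares Cxcr3 with Cxcl9 and Cxcl10, was lower in KRM as well (-1.66, adjusted p = 0.0249), at 5.55 CPM or less in every library. None of the 6 passed the filter on low counts for KRM against CD11chiMϕ or for RAS against Sham in KRM. For RAS minus Sham Cxcl3 was at 2.99 (adjusted p = 0.508) in CD11chiMϕ and at 2.05 (0.553) in CD11cloMϕ.

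Of the 9 listed receptors 4 passed the filter on low counts for KRM against CD11cloMϕ, and 3 were lower and 1 higher in KRM, beside 22.4% and 19.5% of all genes. Cxcr2, the receptor of Cxcl1 and Cxcl2, was at 22.2, 7.07 and 7.63 CPM in CD11cloMϕ Sham and at 0.05 to 0.423 CPM in KRM Sham (log2 fold change -5.82, SE 0.713, edgeR adjusted p = 0.000391), a difference in the same direction as that of the neutrophil markers. In CD11cloMϕ RAS Cxcr2 was at 18.2, 94.2, 109.9 and 197 CPM, with replicate 1 within the Sham range (3.08, adjusted p = 0.553). Cxcr3 was at 21.4 to 24.2 CPM in KRM Sham and at 0.774 to 2.27 CPM in CD11cloMϕ Sham (4.00, SE 0.381, adjusted p = 0.000103), and was also higher in CD11chiMϕ than in CD11cloMϕ (3.60, adjusted p = 0.0328). Cxcr4 (-0.95, adjusted p = 0.00463) and Cxcr7, the Cxcl12 scavenger now named Ackr3 (-2.21, adjusted p = 0.0499), were lower in KRM than in CD11cloMϕ. Of the 9 listed receptors 4 were tested between RAS and Sham KRM, and Cxcr6 and Cxcr4 rose, in a comparison where 7.77% of all genes did. Cxcr6, the Cxcl16 receptor, was at 1.08, 0.317, 0.897 and 1.67 CPM in Sham and at 71.9, 7.21 and 6.87 CPM in RAS (4.93, adjusted p = 0.0301). Its highest value was in the library with the most T and NK cell RNA. Cxcr4 was at 21.7 to 29.3 CPM in Sham and at 50.4, 46.2 and 65.8 CPM in RAS (1.2, adjusted p = 0.0175).

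The proteases that shed or trim CXC chemokines differed strongly between populations in the matrix metalloproteases. Mmp9 (-7.86, edgeR adjusted p = 9.21e-07) and Mmp8 (-7.13, 9.93e-05), both abundant in neutrophils, were lower and Mmp12 (7.26, 1.97e-05) was higher in KRM than in CD11cloMϕ, with 3 of the 6 listed genes higher and 2 lower, beside 19.5% and 22.4% of all genes. Dpp4, which inactivates Cxcl9, Cxcl10 and Cxcl12 by clipping, was higher in KRM too (1.4, 0.00129), as was Adam10, the Cxcl16 sheddase (0.53, 0.0387). In RAS against Sham KRM, Mmp9 rose by 2.83 (adjusted p = 0.014) and Mmp12 fell by 1.37 (0.0276) on the log2 scale, and the other 4 were not called, beside 7.77% higher and 1.94% lower of all genes.

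Genes of a pathway that induces these chemokines, and of the stress response to tissue dissociation, were counted on the same fits. Of 22 NF-kB, IL-1 and TNF response genes, 13 were lower and 2 higher in KRM than in CD11cloMϕ, beside 22.4% lower and 19.5% higher of all genes. Against CD11chiMϕ 5 were lower in KRM, beside 4.13% of all genes, where Il6 (-4.44, edgeR adjusted p = 0.0197), Ptgs2 (-2.83, 0.0233) and Il1a (-2.09, 0.0122) led. In RAS against Sham KRM 8 rose and 0 fell, beside 7.77% and 1.94% of all genes, led by Il6 (4.73, 0.0369), Ptgs2 (4.62, 0.0325) and Il1a (4.45, 0.0021), with a list median of 0.78 beside 0.02 over all genes. Of these 8, Ptgs2 and Tnfaip3 (adjusted p = 0.0496) overlapped between RAS and Sham. Leaving out most single libraries left few genes called in this comparison, as given for Cxcl9. RAS replicates 2 and 3 are the tubule-rich libraries, and the part of that RNA was not tested. The same limits apply to the receptors and proteases above. Of 18 tested dissociation stress genes, 4 rose and 3 fell in RAS KRM, and 7 were lower and 3 higher in KRM than in CD11cloMϕ, beside the same shares of all genes. In RAS against Sham CD11chiMϕ and CD11cloMϕ 0 genes of these lists were called, with medians of 1.34 and 0.75 for the NF-kB list.

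As a description over the 21 libraries, which share groups, depth and admixture, the genes most like each member by Pearson's r of log2 CPM among 14504 genes were listed. Cxcl1 was closest to Lmna (0.917), Ccl2 (0.909) and Emp1 (0.906), and Cxcl2 to 2210403K04Rik (0.927), Ccl2 (0.914) and Gm16854 (0.912), so that the monocyte chemokine Ccl2 stood beside both. Cxcl9 was closest to Serpina3g (0.925), Ccr8 (0.91) and Plxna1 (0.903), and Cxcl10 to Ccrl2 (0.868), Maff (0.853) and Ccnyl1 (0.848). Cxcl12 was closest to Col16a1 (0.893), Tshz2 (0.892) and Gdf10 (0.884), and Cxcl13 to Nupr1 (0.93), Fam160a2 (0.922) and Ecm1 (0.919). Cxcl16 was closest to Pea15a (0.99), Fads1 (0.973) and Blnk (0.968), Cxcl14 to Pon3 (0.95), Cxcl16 (0.947) and Fblim1 (0.936), and Pf4 to Hmox1 (0.891), Serpinb8 (0.886) and Cbr2 (0.87). Within the 9 members the highest r were those of Cxcl14 with Cxcl16 (0.95) and of Cxcl1 with Cxcl2 (0.91), and the lowest was that of Cxcl13 with Cxcl16 (-0.80).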

How the data were processed

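RNA of the sorted macrophages was made into libraries with SMART-Seq v4 and Nextera XT kits. The authors aligned paired-end reads to mm10 with OSA, and the expected counts per Ensembl gene they deposited hold fractions. A second deposited table, on the log2 scale, was used only as an alternative, without KRM RAS replicate 1. The submitters' processing notes name DESeq2.

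Lines of 1 symbol were summed and then rounded to whole numbers (37620 lines, 34236 names). Each comparison used edgeR 4.0.16 in R 4.3.3 on the groups compared: filterByExpr (minimum count 10, minimum total 15), TMM and the two-sided quasi-likelihood F test, with Benjamini-Hochberg adjustment over all genes tested. Intervals are 95%. CPM used rounded counts, and marker sums used total counts. The reads carry no molecular identifiers, so counting intervals cover counting error only. Alternatives were median-of-ratios factors, no filter, DESeq2 1.42.0, 1 fit over 6 groups, a replicate block, limma 3.58.1 on the log2 table and each library left out. After the data had been seen, 3 further alternatives left out tubule-rich libraries (CD11chiMϕ and CD11cloMϕ Sham replicate 3, or KRM RAS replicates 2 and 3) or the CD11chiMϕ RAS libraries with the most dendritic cell RNA (replicates 3 and 4). Functions were tested on simulated data.

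In Sham, same-numbered libraries of the populations deviated together (r of 0.201 to 0.647 in all 9 pairs), and numbers were taken to pair them. The highest r, 0.542 to 0.647, were those of replicate 3, which had the most proximal tubule RNA of each Sham group. For some of the 9 pairs a library of another number had a higher r. CD11chiMϕ Sham replicate 1 and KRM RAS replicate 1, of different treatment, reached an r of 0.414. The pairing is therefore an assumption.

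Members and lists were chosen with earlier results of these data known. Of 223 listed genes 222 were found, 7 under older symbols, and 1 list is not reported here. Named genes were the members, the called genes of each list with the largest changes (at most 3) and the 3 most alike genes of each member. Beyond that rule, Cxcl5, Ppbp, Cxcl15, Cxcl17, Cxcr4, Dpp4, Adam10, Tnfaip3 and single markers were named after their values had been seen.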

Additional observations from a re-analysis of the deposited data

Results flagged for a closer look

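Among 27 groups of 4 libraries tested, 4 held a library whose gap to the nearest other was, as a share of the group's range, above Dixon's 95% critical value, and chance flags about 1 in 20 groups. All 4 values were in RAS libraries of the monocyte-derived populations, and of the groups tested only KRM Sham lay outside these, since groups of 3 libraries were not tested. Cxcl12 was at 21.9 CPM in CD11chiMϕ RAS replicate 2 and at 3.55 to 6.68 CPM in the other replicates. Cxcl13 was at 419.6 CPM in CD11cloMϕ RAS replicate 2 and at 30.8 to 86.7 CPM in the others. CD11cloMϕ RAS replicate 3 held 22.0 CPM of Cxcl14 (2.88 to 5.37 in the others) and 1002 CPM of Cxcl16 (98.9 to 252 in the others). That library also had the highest C1qa, Cadm1 and Emr1 of its group, and the part of other cells in these values was not tested.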

How the results depend on the processing

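The number of members called between KRM and CD11chiMϕ in Sham (3) was 5 with DESeq2, 2 with no filter on low counts, 2 with limma on the deposited log2 table (Cxcl14 lost in both), 1 in 1 fit over all 6 groups, 1 with the replicate block, 5 without the Sham libraries high in tubule RNA (chosen after the data had been seen) and 1 to 5 with 1 library left out. Between KRM and CD11cloMϕ in Sham (6) it was 5 in 1 fit over all 6 groups, where Pf4 was lost, and 6 to 8 with 1 library left out, Cxcl10 (-1.30, adjusted p = 0.033) and Cxcl12 (-1.49, 0.0252) being called as well without CD11cloMϕ Sham replicate 1. Between CD11chiMϕ and CD11cloMϕ in Sham (1) it was 4 with DESeq2, 3 without the tubule-rich libraries and 0 to 1 with 1 library left out. For RAS minus Sham in CD11chiMϕ (0) it was 1 with DESeq2 and 0 to 1 with 1 library left out. For RAS minus Sham in KRM (3) it was 7 with DESeq2, 4 with no filter, 4 in 1 fit over all 6 groups (Cxcl1 added in both), 8 with limma on the deposited log2 table without KRM RAS replicate 1, 1 with that replicate as the lone RAS library (chosen after the data had been seen) and 1 to 7 with 1 library left out. For the response of KRM minus CD11chiMϕ (0) it was 1 with DESeq2, 2 with limma and 0 to 1 with 1 library left out, and for KRM minus CD11cloMϕ (0) it was 2, 2 and 0 to 2. The number of all genes called also changed between alternatives, as given for Cxcl9 in KRM. The member counts are therefore no result about the members alone.

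Replicate numbers did not pair RAS with Sham libraries (r of -0.196 to 0.325 within a population), and with the number as a block 0 members were called in KRM RAS minus Sham. In the Sham comparisons the block changed no call other than those given. With KRM RAS replicate 1 as the lone RAS library, log2 fold changes of Cxcl1 (-1.03) and Cxcl2 (-0.79) in KRM turned negative. So did the responses of KRM minus CD11chiMϕ for Cxcl1 (-1.74), Cxcl2 (-1.53) and Cxcl10 (-0.29) and of KRM minus CD11cloMϕ for Cxcl1 (-0.83), Cxcl2 (-1.13) and Cxcl10 (-0.21). The Cxcl9 response of KRM minus CD11chiMϕ was 0.08 with the replicate block and 0.08 without CD11chiMϕ RAS replicates 3 and 4 (chosen after the data had been seen). The Cxcl1 response of CD11chiMϕ minus CD11cloMϕ ran from -0.02 to 1.46 with 1 library left out, and the Cxcl10 response of KRM minus CD11chiMϕ from -0.01 to 1.02. The causes were not tested. Of 1358 log2 fold changes of members under the alternatives 58 changed sign, and 0 of these belonged to a called difference. The counts of 1 to 9 in KRM Sham libraries limit the precision of Cxcl13 there.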
